A study of Mus musculus with 24 samples.

Results

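The clustered histone genes, 59 of the 19057 genes that a single symbol names on the array, were read on bead arrays through 89 of the platform's 45281 probes. A probe belonged to the set when the platform annotation paired it with a single gene symbol of the H1f, H2ac, H2bc, H3c or H4c series followed by a number, and the rule used no measured value. The 89 probes comprised 11 probes of H1, 23 of H2A, 18 of H2B, 18 of H3 and 19 of H4. By the mouse reference annotation, 44 of these genes lie on chromosome 13, 7 on chromosome 3 and 3 elsewhere, and the other 5 were not placed here. The 3 genes elsewhere (H1f7, H1f8 and H1f10) carry the H1f symbol but lie outside the histone clusters.

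The arrays followed bone marrow-derived macrophages (BMMs) from male C57BL/6 mice of 5 weeks as they were driven towards osteoclasts, the bone-resorbing cells. Whole marrow was cultured for 24 h in medium with 10% serum, and the floating cells were then grown for 72 h with M-CSF, the macrophage growth factor, at 30 ng/ml. The attached cells were sampled at 0 h, labelled as control, or 24, 48 or 72 h after RANKL, the osteoclast differentiation cytokine, was added at 100 ng/ml while the M-CSF dose was kept. Each time had 6 arrays. The series as analysed here has no arm kept in M-CSF alone, so time in culture and RANKL cannot be told apart, and the labels do not say whether the 6 replicates are separate animals or cultures, so the p-values measure only the spread between these arrays.

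Core histones H2A, H2B, H3 and H4 form the nucleosome, and H1 binds the linker DNA between nucleosomes. The clustered genes are present in many near-identical copies and are known for their burst of expression in S phase, when new DNA must be packaged. Their mRNAs usually end in a stem-loop bound by Slbp instead of a poly(A) tail, although some of these genes also give polyadenylated mRNA in cells that leave the cycle. Osteoclasts form by fusion of precursors that stop dividing. The labelling kits named for these arrays prime on poly(A) tails, so the share of each histone mRNA that reached the array is unknown. Probes of near-identical copies may also bind each other's targets, and the values below are therefore read by class and belong to a probe before they belong to a gene.

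Many H2A and H2B genes lie head to head and share the DNA between their starts. These shared promoters are shown because the 2 genes of such pairs moved in opposite directions below. The RefSeq windows (mouse GRCm38.p6) span 250 bases before to 50 after a start, 5′ to 3′ on the strand of the gene named. Capitals mark TATAAA (the TATA box core), CCAAT (the CCAAT box) and TTTGCAT (the octamer core), searched on both strands. The first window is H2bc12 at chr13:22035571-22035870 on the plus strand, and the start of H2ac12 lies within it, on the other strand, 178 bases before that of H2bc12. The second is H2ac7 at chr13:23574131-23574430 on the plus strand, with the start of H2bc7 174 bases before its own. The third is H1f2 at chr13:23738557-23738856 on the plus strand, the linker histone gene whose probes rose most, and the last is H4c9 at chr13:22041313-22041612 on the minus strand, a gene of the class that fell by small amounts.
H2bc12: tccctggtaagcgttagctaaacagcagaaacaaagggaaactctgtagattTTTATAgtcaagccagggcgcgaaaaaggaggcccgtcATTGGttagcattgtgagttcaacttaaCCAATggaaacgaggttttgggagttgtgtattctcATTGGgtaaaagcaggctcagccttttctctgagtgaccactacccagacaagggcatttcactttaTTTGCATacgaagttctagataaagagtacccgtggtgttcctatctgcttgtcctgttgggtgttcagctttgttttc
H2ac7: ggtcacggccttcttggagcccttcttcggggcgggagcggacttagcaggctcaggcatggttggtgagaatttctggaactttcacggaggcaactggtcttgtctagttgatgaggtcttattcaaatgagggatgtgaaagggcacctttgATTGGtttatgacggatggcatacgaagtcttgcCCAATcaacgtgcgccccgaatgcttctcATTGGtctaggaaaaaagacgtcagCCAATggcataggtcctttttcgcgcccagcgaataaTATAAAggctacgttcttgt
H1f2: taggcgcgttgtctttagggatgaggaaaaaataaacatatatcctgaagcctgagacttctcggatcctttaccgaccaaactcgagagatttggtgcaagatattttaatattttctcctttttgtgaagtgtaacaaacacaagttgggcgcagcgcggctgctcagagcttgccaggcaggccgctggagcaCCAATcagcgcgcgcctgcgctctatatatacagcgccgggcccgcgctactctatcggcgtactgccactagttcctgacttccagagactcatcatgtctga
H4c9: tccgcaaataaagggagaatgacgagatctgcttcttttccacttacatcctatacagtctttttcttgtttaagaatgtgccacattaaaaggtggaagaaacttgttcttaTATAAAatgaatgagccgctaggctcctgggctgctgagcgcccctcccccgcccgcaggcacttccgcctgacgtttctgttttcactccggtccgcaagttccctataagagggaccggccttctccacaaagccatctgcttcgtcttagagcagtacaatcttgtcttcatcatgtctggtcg

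A window was found for 54 of the 59 genes, 55 windows in all. CCAAT was in 100% of the 16 H2A, the 12 H2B and the 7 H3 windows, in 77.8% of the 9 H1 windows and in 27.3% of the 11 H4 windows, against 37.4% of all 32851 promoter windows. TATAAA was in 72.7% of the H4 windows and 68.8% of the H2A windows, against 13.6% of all. TTTGCAT was in 58.3% of the H2B and 37.5% of the H2A windows, against 4.63% of all, and in none of the H1 and H3 windows. Windows of a head-to-head pair overlap, so the 2 genes share some of these matches, and the 3 motifs as spelled do not contain each other.

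All signals below are log2 of the quantile-normalised array signal. A probe was kept when, at any 1 time, 3 or more arrays put its signal above the negative control probes (detection p below 0.05), which held for 18346 probes on the array and for 67 of the 89 histone probes (47 genes). Of the 89, 53 were detected on all 24 arrays and 20 on none. Kept probes numbered 4 for H1, 21 for H2A, 14 for H2B, 13 for H3 and 15 for H4. No probe was kept for 12 genes, namely H1f1, H1f3, H1f4, H1f5, H1f6, H1f7, H1f8, H2ac1, H2ac6, H2bc1, H2bc18 and H4c2, which leaves H1f2 and H1f10 alone to stand for the linker histones. At 0 h 60 of the 67 were already detected on at least 3 arrays, and the other 7 passed only through a later time. Arrays of the same time correlated at r = 0.994 to 0.998 over the 18346 kept probes, 15781 to 17109 probes were detected per array, and no pair of arrays was identical. A bead array gives no read depth, so the number of arrays limits the precision.

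The cells matched their labels in part. Of 8 macrophage markers 7 were kept, among them Csf1r and Adgre1 on all arrays. Of these 7, 2 were higher and 2 lower at 24 h, 4 and 1 at 48 h, and 4 and 2 at 72 h. Their summed signal went from 43000 to 46800 at 0 h to 52800 to 56300 at 48 h and 50500 to 53800 at 72 h. Of 10 osteoclast markers 7 were higher at every later time, with Calcr and Atp6v0d2 not kept and Itgb3 not called. Signals of other marrow cells fell over the same hours. All 12 kept neutrophil and myeloid progenitor markers of 13 were lower at every later time, and their summed signal went from 60000 to 65200 at 0 h to 26200 to 27600 at 24 h, 23600 to 25000 at 48 h and 11200 to 12500 at 72 h. The 4 kept erythroid and megakaryocyte markers of 9 fell as well, from a sum of 8130 to 9850 at 0 h to one of 2080 to 2540 at 72 h, with Gata1, Klf1 and Alas2 not kept. The erythroid gene Hba-a1 did not fall steadily. Its mean log2 signal was 8.69 at 0 h, no array detected it at 24 or 48 h, and it was back at 8.12 on all 6 arrays at 72 h. Of 5 B cell markers 2 were kept, with 2 lower at 24 h and 1 lower at 48 and 72 h. The 1 kept marker of 5 for T and NK cells was lower at every later time. The 3 kept stromal markers of 6 rose at 48 and 72 h, from a sum of 390 to 449 at 0 h to one of 1080 to 1200 at 72 h, with Col1a2, Col3a1 and Lum not kept. The part of these cells in the histone signals was not tested, and in bulk RNA fewer cells of a type and less RNA per cell cannot be told apart.

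The classes moved far apart at 48 h, after smaller differences between them at 24 h. H2A fell, most of its probes steeply, H2B rose, H4 and most of H3 fell by small amounts, and the linker histone H1f2 rose. At 48 h against 0 h, 19 of the 67 kept histone probes were higher and 40 lower, against 34.3% higher and 35% lower of all 18346 kept probes (limma, adjusted p under 0.05 over all of them). At 72 h against 0 h, 21 were higher and 39 lower, against 36% and 35.2% of all. The steepest falls were those of H2A. By 48 h 7 H2A probes had fallen at least 8-fold where 0.104% of all probes had, and by 72 h 11 had, where 0.311% of all had. Of the 10 largest falls on the whole array at 72 h, 7 were clustered histone probes, and of the 20 largest, 9 were H2A probes. Among the 53 probes detected on all arrays, which no single time let through, 17 were higher and 30 lower at 48 h. By 72 h the same 53 gave 19 rises and 28 falls. The rises counted over all 67 include, at both times, H2bc8 and H3c14 probe ILMN_2521561, which only 48 or 72 h let through. The falls include H2bc3, H3c3 and H1f10 probe ILMN_3122845, and at 72 h also H3c8, all kept only through 24 h. Of the 40 lower probes at 48 h and the 39 at 72 h, 2 each time (of H1f10 and H3c3) were detected on no array of either time, so their direction is not read.

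**Figure D1:**
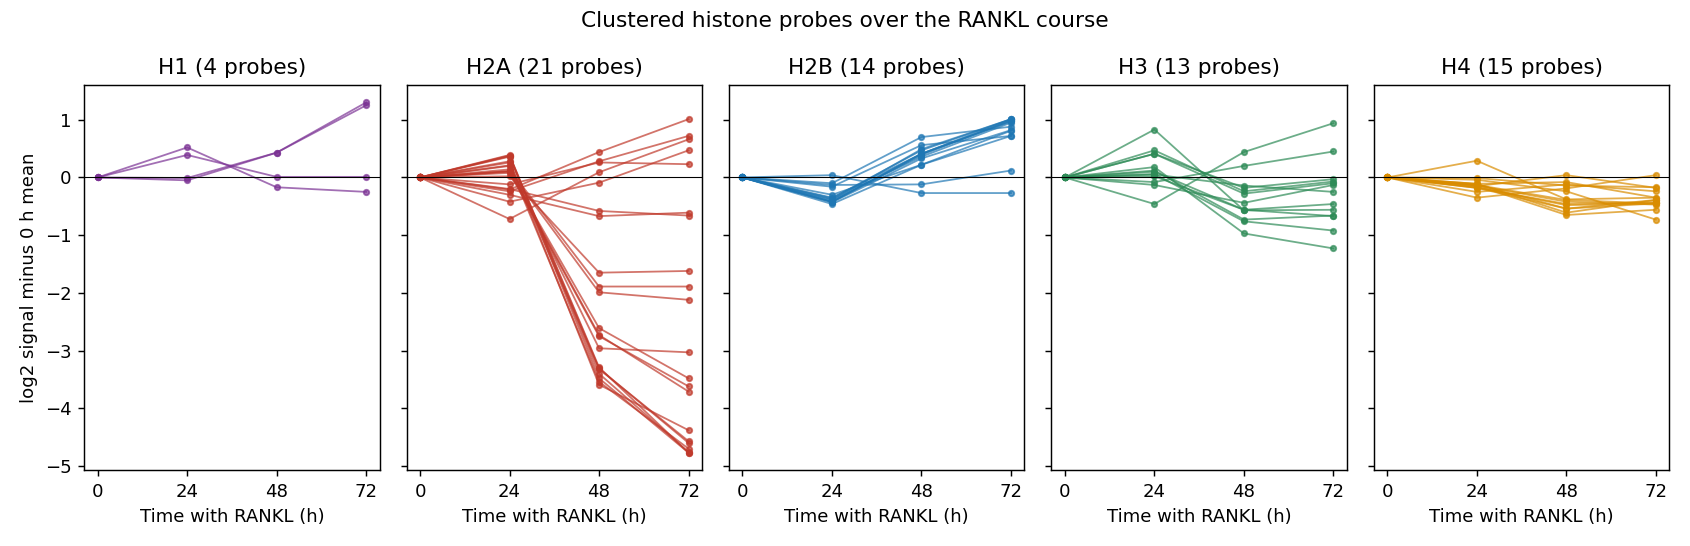
Change in mean log2 signal from 0 h (y axis) against hours with RANKL (x axis) for each of the 67 kept probes, one line a probe and one panel a class. H2A lines run down to -4.77 at 72 h except for 5 probes that end above 0, while 12 of 14 H2B lines end between 0.72 and 1.02.

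H2A, the core histone that pairs with H2B in the nucleosome, held the largest falls of the whole set. Of its 21 kept probes (14 genes), 16 (12 genes) were lower at 48 h, with log2 changes of -0.58 to -3.59, and 3 were higher. At 72 h the 16 lower probes stood at -0.62 to -4.77, with a median of -3.66, and 5 probes (3 genes) were higher by 0.23 to 1.02. H2ac4 was detected on no array at 48 or 72 h, and its falls were at least 1.37-fold and 1.36-fold. All 16 lay below the 0 h range on every array at both times, which held for 25.2% of all kept probes at 48 h and 25.5% at 72 h. The median change over the 21 probes was -2.62 at 48 h and -3.03 at 72 h, against -0.01 and 0.00 over all kept probes.

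H2ac12 read 13.35, 13.68 and 13.94 (lowest, median and highest of 6 arrays) at 0 h, 13.72, 14.16 and 14.28 at 24 h, 9.97, 10.42 and 10.76 at 48 h, and 8.58, 8.96 and 9.10 at 72 h. The 72 h arrays all lay below the 48 h arrays, and those below every earlier array. The fall at 72 h was 27.3-fold (log2 change -4.77, SE 0.12, limma adjusted p = 2.83e-28), the largest fall among the 18346 kept probes, and the second H2ac12 probe gave the same change, -4.77 (SE 0.077). H2ac11 read 11.11, 11.49 and 11.70 at 0 h, 11.54, 11.75 and 11.85 at 24 h, 7.71, 7.88 and 7.94 at 48 h, and 6.90, 7.07 and 7.15 at 72 h. It was the largest H2A fall at 48 h (log2 change -3.59, SE 0.075, adjusted p = 9.67e-30), and at 72 h only 4 of 6 arrays still detected it. At 72 h the log2 change was -4.76 for H2ac15, -4.70 for H2ac22, -4.60 and -3.62 for the 2 probes of H2ac7, and -3.48 for H2ac24. The falls went on between 48 and 72 h, where 11 H2A probes were lower and 4 higher, against 16.2% and 16.8% of all probes called lower and higher in that comparison.

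The H2A probes with the highest mean over all 24 arrays, a ranking to which the size of a fall itself contributes, were those of H2ac10 and H2ac13, and neither was called between 48 and 72 h (0.03 and 0.01). H2ac24 and 1 H2ac7 probe (ILMN_1226839), with 0 h means of 14.76 and 14.62 close to theirs, were lower again at 72 h than at 48 h (-0.86 and -0.87). H2ac10 (probe ILMN_1252136) read 14.67, 14.79 and 15.02 at 0 h, 14.74, 14.81 and 14.90 at 24 h, 12.99, 13.17 and 13.25 at 48 h, and 12.97, 13.18 and 13.34 at 72 h. Its 48 and 72 h ranges overlapped, and both lay below the earlier arrays (-1.65 and -1.62, SE 0.057, adjusted p = 1.29e-23 and 1.64e-23). H2ac13 (probe ILMN_2745212) moved likewise, from 14.45, 14.56 and 14.63 at 0 h and 14.53, 14.72 and 14.83 at 24 h to 12.38, 12.69 and 12.77 at 48 h and 12.50, 12.68 and 12.80 at 72 h. The other probes of these genes fell further, to a log2 change of -4.57 for H2ac10 and -3.70 for H2ac13 at 72 h. The highest signal of a histone probe was 36340 where the highest on any probe was 38468, and saturation at such signals was not tested.

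The H2A calls of the 2 clusters are given apart. All 14 kept probes from 10 genes on chromosome 13 were lower at both 48 and 72 h, while the 7 from 4 genes on chromosome 3 held all of the H2A rises. At 48 h 3 of those 7 were higher and 2 lower, and by 72 h the higher ones numbered 5. H2ac19 read 10.73, 11.08 and 11.32 at 0 h, 10.73, 10.84 and 11.04 at 24 h, 11.42, 11.49 and 11.66 at 48 h, and 11.97, 12.07 and 12.20 at 72 h, where it was 2.02-fold higher than at 0 h (1.02, SE 0.07, adjusted p = 4.3e-15). Its 72 h arrays lay above all others. H2ac18 (probe ILMN_1231053) dipped first, reading 10.82, 10.97 and 11.29 at 0 h, 10.20, 10.33 and 10.36 at 24 h, 10.95, 11.14 and 11.19 at 48 h and 11.52, 11.75 and 11.79 at 72 h. Its fall at 24 h was the largest of any histone probe at that time (-0.72, SE 0.066, adjusted p = 1.11e-11), and at 72 h it stood above the 0 h range (0.66, adjusted p = 8.2e-11). H2ac21, also on chromosome 3, fell 7.77-fold at 48 h and 8.19-fold at 72 h, and 1 of the 2 H2ac20 probes, read below, fell as well.

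**Figure D2:**
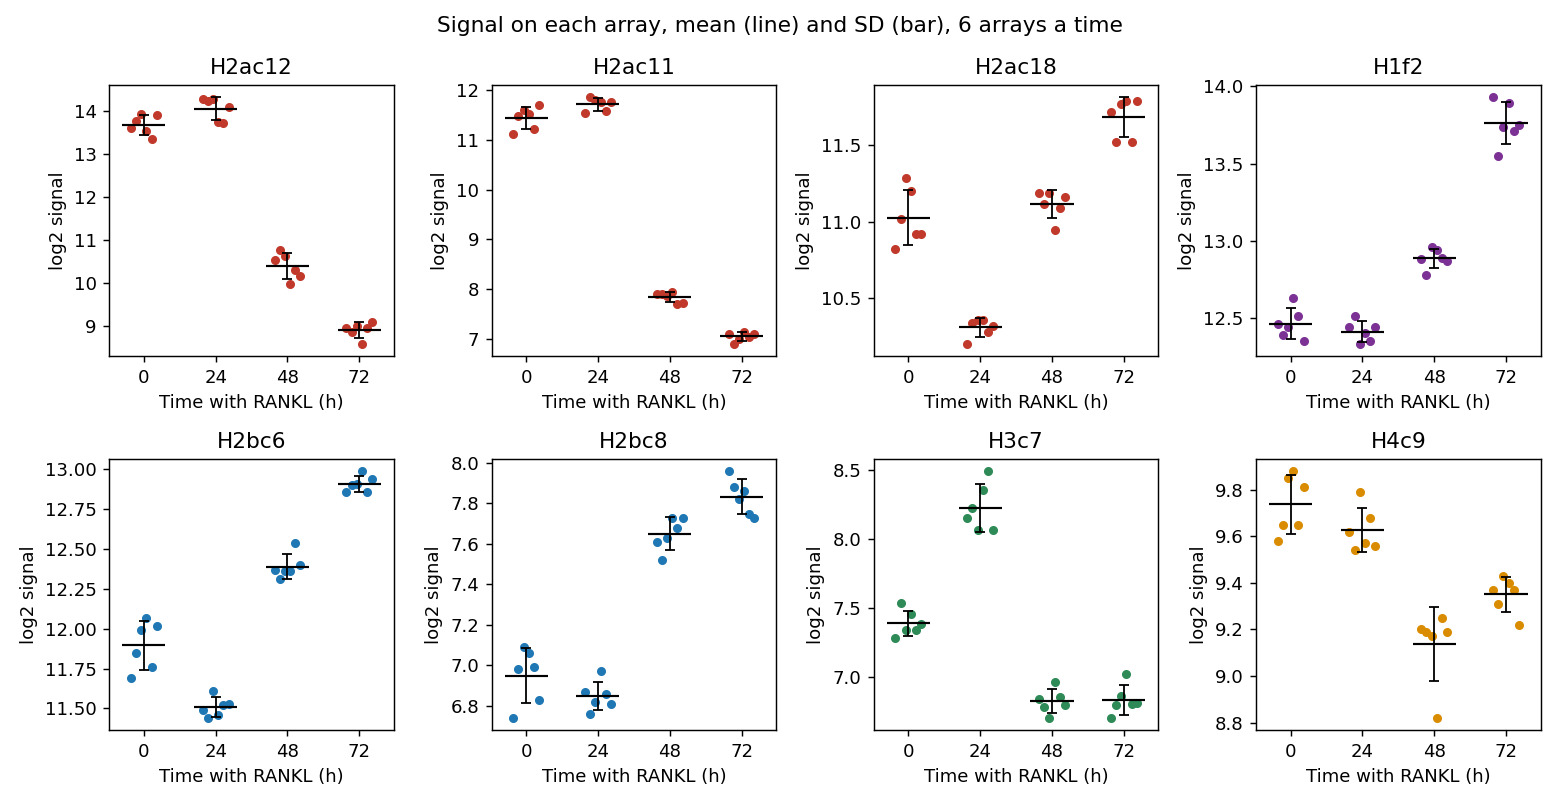
Log2 signal (y axis, a separate scale in each panel) on every array against hours with RANKL (x axis) for 8 probes, with the mean as a line and the SD as a bar over 6 arrays a time. H2ac12 and H2ac11 fall to 8.91 and 7.05 at 72 h, H2ac18, H1f2 (the probe at 12.46 at 0 h), H2bc6 and H2bc8 end above their 0 h arrays, H3c7 peaks at 24 h, and 1 array of H4c9 at 48 h lies below the rest.

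H2B, the partner of H2A in the same dimer, went the other way. Of 14 kept probes (11 genes), 11 (9 genes) were lower at 24 h, at -0.16 to -0.45, and none was higher. At 48 h 12 probes (10 genes) were higher than at 0 h by 0.22 to 0.70, and at 72 h the same number were higher by 0.72 to 1.02, all 12 without overlap with the 0 h arrays. Non-overlap upwards was found for 26.1% of all kept probes at 72 h. The median H2B change was -0.37, 0.40 and 0.91 at 24, 48 and 72 h.

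H2bc6 (probe ILMN_2742592) read 11.69, 11.92 and 12.07 at 0 h, 11.44, 11.50 and 11.61 at 24 h, 12.31, 12.36 and 12.54 at 48 h, and 12.86, 12.91 and 12.99 at 72 h. Its 4 times did not overlap, and at 72 h it was 2.02-fold higher than at 0 h (1.01, SE 0.054, adjusted p = 4.16e-18). H2bc7 read 11.43, 11.71 and 11.97 at 0 h, 11.25, 11.36 and 11.46 at 24 h, 12.07, 12.14 and 12.33 at 48 h and 12.53, 12.70 and 12.91 at 72 h, also 2.02-fold higher (1.02, SE 0.067, adjusted p = 1.2e-15). H2bc8 was dim, at 6.74, 6.99 and 7.09 at 0 h, 6.76, 6.84 and 6.97 at 24 h, 7.52, 7.65 and 7.73 at 48 h, and 7.73, 7.84 and 7.96 at 72 h. It was detected on 2 arrays at 0 h, none at 24 h and all 6 at both later times, so it was kept only through the times at which it was high. It had the largest measured difference upwards at 48 h, 0.70 against a 0 h signal near the limit of detection. With normexp background correction that difference was 1.36, and at 72 h it was 1.65 in place of 0.88. The exceptions were H2bc3, detected on 2 arrays at 0 h and on none at 48 or 72 h, for which no fall can be given, and a second H2bc21 probe, at -0.12 at 48 h and 0.12 at 72 h and called at neither.

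The head-to-head pairs set these directions side by side on the same arrays. Starts of an H2A and an H2B gene on opposite strands lay within 1000 bases in 6 pairs, 164 to 281 bases apart, all on chromosome 13, and in 5 of them both genes had a kept probe. Each gene is represented here by its brightest kept probe. H2bc8 was detected on only 2 of 6 arrays at 0 h, on none at 24 h and on all 6 at 48 and 72 h. It was kept only through those later times, so the filter itself favoured a rise of this gene. In the 4 pairs without H2bc8 the H2A gene was lower and the H2B gene higher at both 48 and 72 h. H2ac8 and H2bc8 had the same calls, but that of H2bc8 is not independent of the filter. The log2 ratio of H2A to H2B within an array had changed at 72 h by -5.72 for H2ac15 and H2bc15, -5.59 for H2ac12 and H2bc12, -5.37 for H2ac11 and H2bc11, -4.63 for H2ac7 and H2bc7, and -1.50 for H2ac8 and H2bc8. In the 4 pairs without H2bc8 the ratio at 48 and 72 h did not overlap that at 0 h. Each exact permutation test there gave p = 0.00216 (two-sided, 6 against 6 arrays, the smallest such a test can give, 15 comparisons in all). The ratio of H2ac8 to H2bc8 did not overlap either, but no test of it is read, since the filter favoured the rise of H2bc8. At 24 h the ratio was higher for 4 of the pairs, by 0.44 to 0.81, and at -0.21 for H2ac8 and H2bc8. For H2ac7 and for H2ac8 the ranges overlapped (exact permutation p = 0.00649 and 0.026). No 24 h array detected H2bc8, so no direction is read from the 24 h ratio of its pair. The promoter windows of H2bc12 and H2ac7 printed above each span the starts of an H2A gene that was lower and an H2B gene that was higher at 48 and 72 h.

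**Figure D3:**
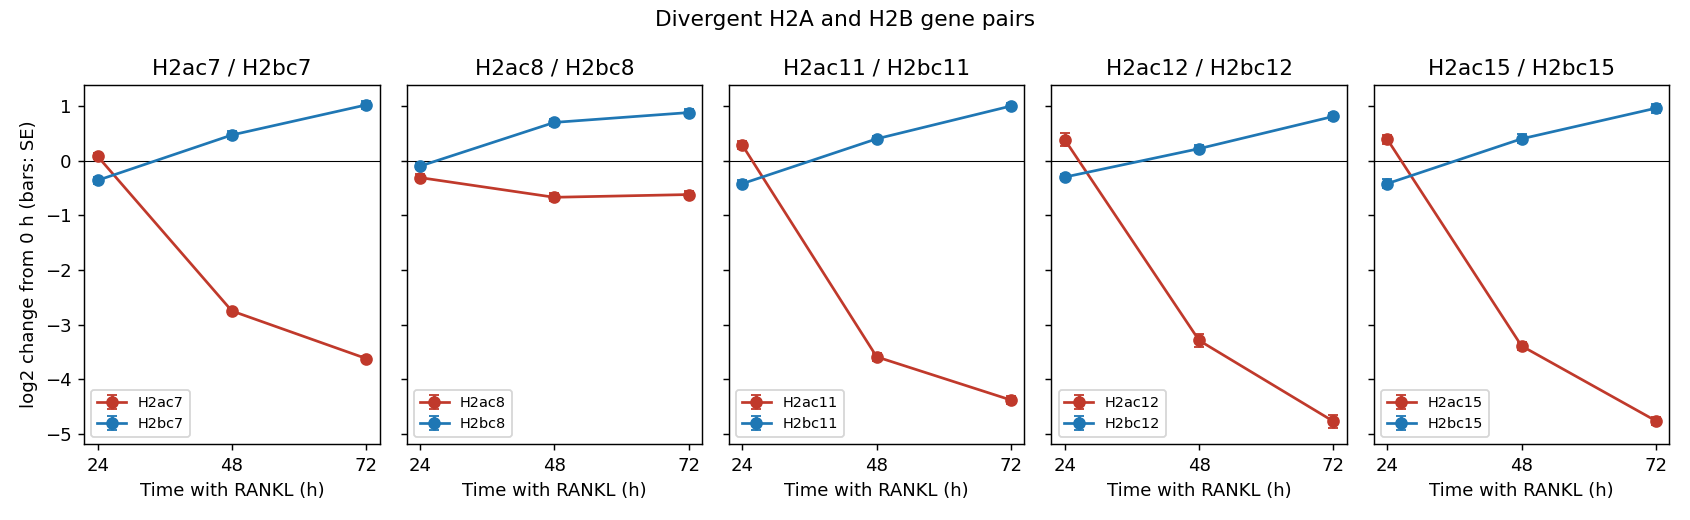
Log2 change from 0 h (y axis, points with SE bars from the limma fit) against hours with RANKL (x axis) for the 5 head-to-head pairs, H2A in red and H2B in blue. In each panel the H2A point is below 0 and the H2B point above 0 at 48 and 72 h, and the gap is smallest for H2ac8 and H2bc8.

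H1f2, which encodes the linker histone H1.2, rose late. One probe (ILMN_2774537) read 12.52, 12.69 and 12.74 at 0 h, 12.56, 12.64 and 12.73 at 24 h, 13.03, 13.08 and 13.15 at 48 h, and 13.78, 13.91 and 13.99 at 72 h. The other (ILMN_2855315) read 12.35, 12.45 and 12.63, then 12.33, 12.42 and 12.51, then 12.78, 12.89 and 12.96, then 13.55, 13.75 and 13.93. The 0 and 24 h ranges overlapped for both, and the 48 h and 72 h arrays each lay above all earlier ones. At 72 h they were 2.38-fold and 2.45-fold higher than at 0 h (1.25, SE 0.047, adjusted p = 1.02e-22, and 1.30, SE 0.054, adjusted p = 2.89e-21), and the second was the largest rise of any histone probe at that time. The 2 probes of H1f10, a linker histone encoded outside the clusters, were detected at 24 h only, on 3 and 5 arrays, so they were kept through the time at which they were high. Their 24 h means were 7.05 and 7.15, and since no 0 h array detected them, only the second gives a bound, at least 1.07-fold over 0 h.

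H3, the histone whose tail carries many of the best-known chromatin marks, was mixed. Of 13 kept probes (9 genes), 5 rose and 1 fell at 24 h. Falls numbered 10 at 48 h and 7 at 72 h, and 2 probes, both of H3c14, rose at each of these times. The 72 h falls numbered 11 with median scaling, 11 with 75th percentile scaling and 11 in the authors' processed values. One of the 2 rising probes (ILMN_2521561) was detected on no array at 0 h and was kept only through 72 h. H3c7 (probe ILMN_2925169) read 7.28, 7.36 and 7.53 at 0 h, 8.06, 8.19 and 8.49 at 24 h, 6.70, 6.81 and 6.96 at 48 h and 6.70, 6.80 and 7.02 at 72 h. The 24 h arrays lay above all others, 1.78-fold over 0 h, the largest rise of any histone probe at that time (0.83, SE 0.065, adjusted p = 1.61e-13). It was detected on no array at 48 or 72 h, so it had fallen from 24 to 48 h at least 2.28-fold, a bound against the lowest detected signals (adjusted p = 4.58e-20). The other kept H3c7 probe was at 0.12 at 24 h and was not called there. H3c1 fell furthest, 2.35-fold at 72 h (-1.23, SE 0.066, adjusted p = 3.75e-18), and by 2.00 on the log2 scale with normexp background correction.

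In the main fit the brightest H3 probes, of H3c13 and H3c14 (ILMN_3136540), returned to near their starting signal. This depended on scaling. With median scaling, 75th percentile scaling and the authors' processed values, they were among the 11 of 13 H3 probes called lower at 72 h. H3c13 read 11.67, 11.84 and 11.92 at 0 h, 12.02, 12.30 and 12.43 at 24 h, 11.34, 11.56 and 11.77 at 48 h, and 11.60, 11.77 and 11.84 at 72 h. Its 24 h arrays stood above every other array (0.47, SE 0.066, adjusted p = 1.36e-07), and the 72 h change was -0.07 and not called. H3c14 (probe ILMN_3136540) read 11.27, 11.46 and 11.62 at 0 h, 11.71, 11.89 and 12.02 at 24 h, 11.02, 11.34 and 11.46 at 48 h, and 11.31, 11.45 and 11.52 at 72 h, also with a 24 h rise (0.41, adjusted p = 3.18e-06). Its fall at 48 h (-0.17, adjusted p = 0.0259) was -0.12 without replicate 4 of 48 h (adjusted p = 0.107). Another H3c14 probe (ILMN_3040069) went the opposite way, with -0.46 at 24 h, 0.44 at 48 h and 0.93 at 72 h.

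H4, which pairs with H3, fell by small amounts. Of 15 kept probes (11 genes), 12 were lower at 48 h, at -0.15 to -0.65, and 14 at 72 h, at -0.17 to -0.55 except for H4c3, and none was higher at either time. H4c1 read 10.20, 10.29 and 10.38 at 0 h, 10.05, 10.15 and 10.27 at 24 h, 9.65, 9.93 and 10.00 at 48 h and 9.76, 9.83 and 9.94 at 72 h. The 48 and 72 h arrays lay below all those at 0 h, 1.37-fold at 72 h (-0.45, SE 0.055, adjusted p = 4.78e-09). H4c9 read 9.58, 9.73 and 9.88, then 9.54, 9.59 and 9.79, then 8.82, 9.19 and 9.25, then 9.22, 9.37 and 9.43, again with both late times below the 0 h range (-0.60 at 48 h and -0.39 at 72 h, SE 0.064, adjusted p = 3.14e-10 and 2.26e-06). No 72 h array detected H4c3, whose fall there was at least 1.17-fold (adjusted p = 5.92e-14), and H4c8 was the 1 probe not called at 72 h (0.04).

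The first day differed in kind. At 24 h against 0 h, 18 histone probes were higher and 25 lower, against 32% and 33% of all kept probes, and none changed by 2-fold, where 2.81% and 2.04% of all did. The 18 include both H1f10 probes, which were kept only through 24 h. Among the 53 probes detected on all arrays, 12 were higher and 24 lower. Over the 67 kept probes, H2A had 10 higher and 6 lower, H3 5 higher and 1 lower, H4 1 higher and 7 lower, and H2B none higher and 11 lower. These small H2A rises, 0.11 to 0.39, depended on scaling. They numbered 4 with median scaling, 4 in the authors' processed values and 0 with 75th percentile scaling, which moved the median of all kept probes at 24 h to -0.10 and gave 7 higher and 36 lower histone probes in place of 18 and 25. The H2B falls at 24 h numbered 10, 10 and 13 under the same 3, and the H4 falls 1, 1 and 11 in place of 7. From 24 to 48 h, 23 probes were higher and 41 lower, against 36.3% and 34% of all, with 8 H2A probes lower by at least 8-fold where 0.207% of all were. Those lower include both H1f10 probes, H2bc3, H3c3 and H3c8, kept only through 24 h. Those higher include H2bc8 and H3c14 probe ILMN_2521561, kept only through later times. Among the 53 probes detected on all arrays, 21 were higher and 29 lower. From 48 to 72 h, 26 of the 67 kept probes were higher and 16 lower, against 16.8% and 16.2% of all, and the risers included 13 of 14 H2B probes and both H1f2 probes. Among the 53, 24 were higher and 12 lower.

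Probes of the same gene did not always move together. Of the 17 genes with more than 1 kept probe, 2 had probes called in opposite directions at 24 h, 2 at 48 h and 1 at 72 h against 0 h. H2ac20 was among them each time. One of its probes (ILMN_1218380) read 14.55, 14.57 and 14.77 at 0 h, 14.68, 14.75 and 14.79 at 24 h, 12.53, 12.62 and 12.71 at 48 h, and 12.39, 12.52 and 12.58 at 72 h, a fall of 4.36-fold (-2.12, SE 0.046, adjusted p = 6.88e-30). The other (ILMN_1254276) read 8.50, 8.70 and 8.83, then 8.34, 8.41 and 8.52, then 8.73, 8.96 and 9.14, then 9.28, 9.37 and 9.57, a rise of 1.65-fold (0.72, SE 0.065, adjusted p = 5.9e-12). At 72 h neither overlapped its own 0 h range. Probe sequences were not used here, so which transcripts each probe bound was not tested.

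**Figure D4:**
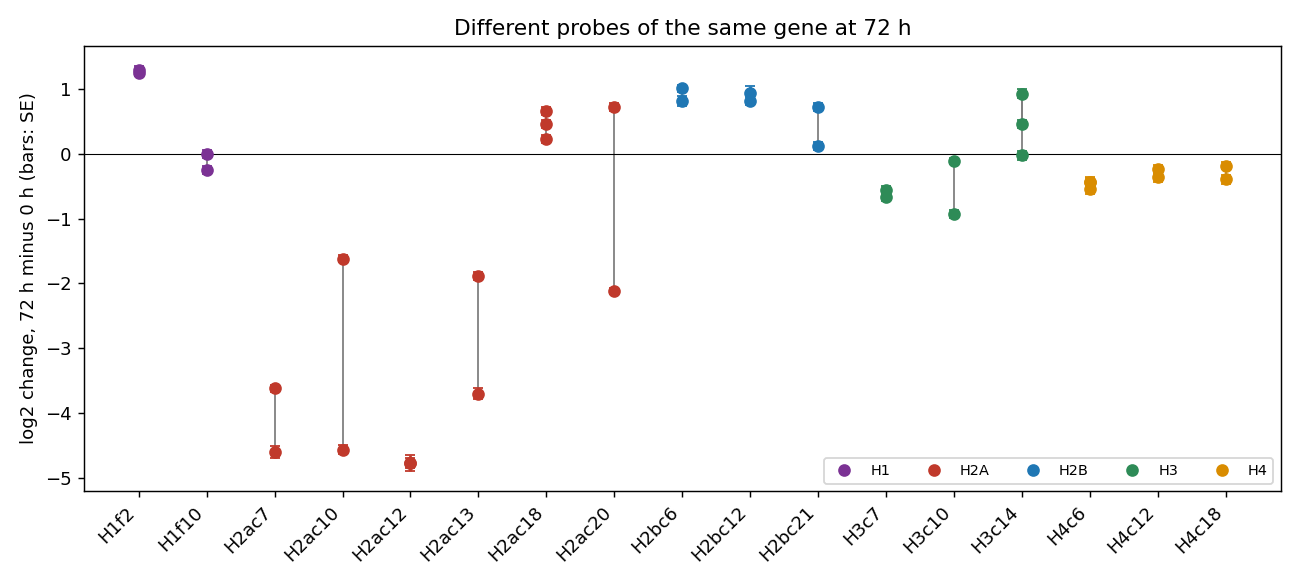
Log2 change at 72 h against 0 h (y axis, points with SE bars) for every kept probe of the 17 genes with more than 1 (x axis), a line joining the probes of a gene and colour giving the class. The 2 H2ac20 points lie at -2.12 and 0.72, those of H2ac10 at -4.57 and -1.62, and those of H2ac12 coincide.

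Genes around the histone genes were read from 4 textbook lists, with the brightest kept probe standing for each gene. Of all kept probes, 32% were higher and 33% lower at 24 h, 34.3% and 35% at 48 h, and 36% and 35.2% at 72 h. Of 30 genes of S phase entry and DNA replication 26 were kept, of which 23 were higher and 1 lower at 24 h, and all 26 were lower at both 48 and 72 h. Their median change was 0.72, -1.27 and -1.52. The largest falls at 48 h were Mcm5, a subunit of the replicative helicase (-2.48, adjusted p = 3.61e-31), Tk1, thymidine kinase (-2.10, adjusted p = 4.17e-25), and Tyms, thymidylate synthase (-1.99, adjusted p = 1.62e-25), and all 3 had been higher at 24 h, by 1.05, 1.46 and 1.06. The H2A falls came at the times when every kept gene of this list was lower, and the H2B and H1f2 rises came at those times too.

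Of 22 histone chaperones and import factors 19 were kept. At 24 h 16 rose and 1 fell, at 48 h 6 rose and 11 fell, and by 72 h 3 had risen and 14 had fallen. The 6 of 19 that rose at 48 h lie near the 34.3% of all kept probes. Mcm2, which holds H3 and H4 at the fork, fell by 2.15 at 48 h, Chaf1a, a subunit of chromatin assembly factor 1, by 1.76, and Asf1b, a chaperone of H3 and H4, by 1.37. Rbbp7 (0.86), Supt16 (0.77) and Daxx (0.40), which bind H4, H2A with H2B, and the variant H3.3, were higher at 48 h. Asf1a was at -0.10 and Ubn1 at -0.01, and neither was called.

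Of the 9 histone variants encoded outside the clusters 8 were kept. At 24 h 5 rose and 1 fell, and at each later time 1 rose and 5 fell. H2ax, the variant phosphorylated at DNA breaks, fell by 2.11 at 48 h (adjusted p = 2.2e-27), Cenpa, the centromeric H3, by 1.08, and H2az1 by 0.41. H3f3a, which encodes the replication-independent H3.3, was higher by 0.45 (adjusted p = 2.12e-09), while H3f3b was at 0.07 and H2aj at -0.11, neither called. Of 19 genes of histone mRNA transcription and 3′ processing 12 were kept. At 24 h 4 rose and 3 fell, at 48 h 1 rose and 6 fell, and at 72 h 0 rose and 6 fell. The 24 h counts lie near the shares of all kept probes (32% higher and 33% lower) and are not read as a change of this list. Slbp, Npat and Lsm11 were not kept. Upf1, which acts in histone mRNA decay, fell by 0.99 at 48 h, Sympk by 0.96 and Srrt by 0.82, Ncbp2 of the cap-binding complex was higher by 0.24, and Lsm10 (0.13) and Hinfp (-0.11) were not called.

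**Figure D5:**
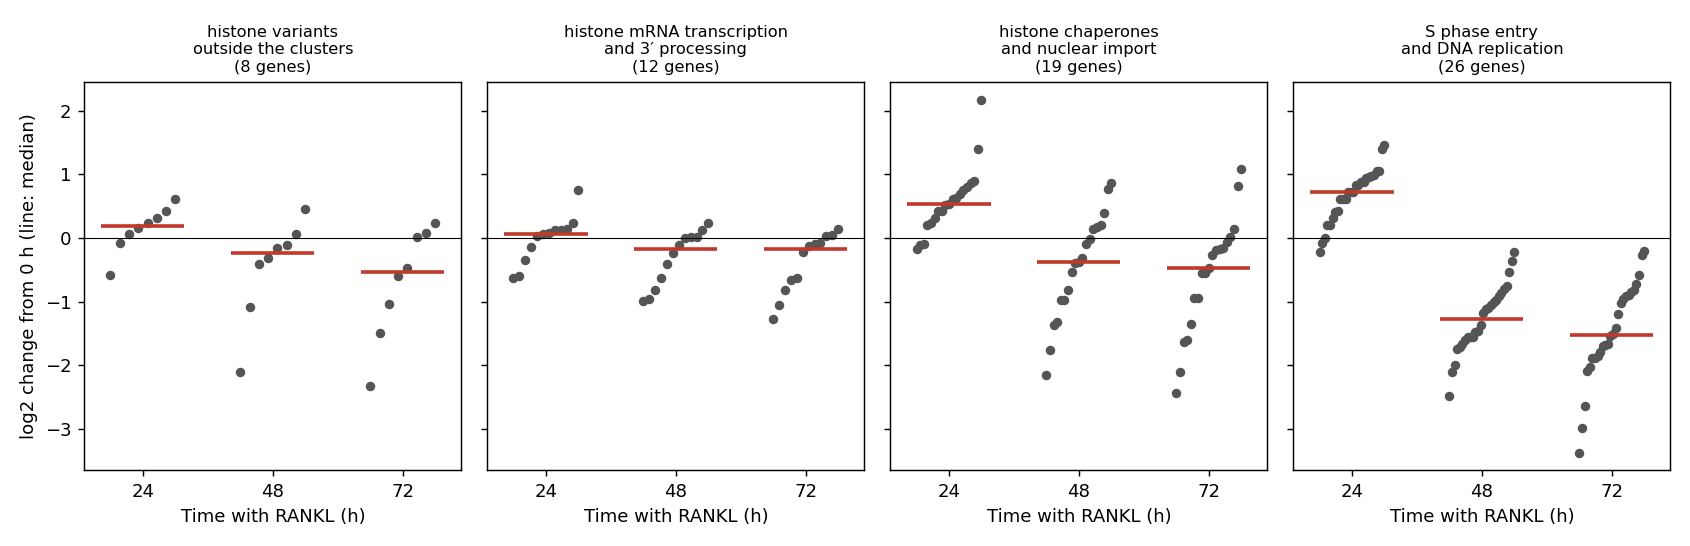
Log2 change from 0 h (y axis) of every kept gene, 1 point a gene in order of size, at 24, 48 and 72 h with RANKL (x axis), with 1 panel for each of the 4 lists and the median as a line. The S phase medians lie at 0.72, -1.27 and -1.52, and the other 3 lists lie nearer to 0.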

How the data were processed

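Total RNA of 24 BMM samples was hybridised to Illumina mouse bead arrays. The authors extracted the deposited signal intensity and detection p-value of each probe with GenomeStudio, and deposited a table of processed log2 values, used as an alternative. The methods name log transformation and quantile normalisation, but the columns of that table do not share 1 distribution (medians 1.90 to 1.99), so its scaling and centring remain unknown. The labels and the paper name different labelling kits. The log2 signals were quantile normalised over 24 arrays without background correction (limma 3.58.1, R 4.3.3). Probes that 3 or more arrays of any 1 time detected (p below 0.05) were fitted over the 4 times (lmFit, eBayes with a trend, 20 residual degrees of freedom), adjusted by Benjamini-Hochberg over 18346 probes and called at an adjusted p under 0.05. Where no array of a time detected a probe, a fold is given as a lower bound. The fit was tested on simulated data.

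The histone probes and gene lists were chosen with earlier results of these data known. Values on arrays are given for the 2 brightest kept probes of each class and for the largest rise and fall at each time, and H2ac19 and both H2ac20 probes were added after their values were seen. Of each list, up to 3 rises, 3 falls and 2 genes not called are named by their change at 48 h. Alternatives were other background correction, scaling, filters, tests and left-out replicates. For every pair of times, deviations from the time means correlated more between same-numbered arrays (mean r 0.132 to 0.286) than between others (-0.0561 to -0.0242). The mean was highest for 0 and 24 h. Every same-number r was over 0.1 only for 48 and 72 h (0.11 to 0.529), and single values elsewhere went down to -0.186. The main fit has no block, and a replicate block by number is an alternative.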

Additional observations from a re-analysis of the deposited data

Results flagged for a closer look

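Among 60 sets of 6 arrays (15 probes at 4 times), 5 held an array far from the other 5, where chance gives about 1 in 20. Replicate 4 of 48 h accounts for 3 of them, being lowest for H4c9 (8.82 against 9.17 for the next, a gap of 0.814 of the range), H2ac13 (12.38 against 12.67, 0.744) and H4c1 (9.65 against 9.89, 0.686). Without that array, left out after the data were seen, 19 histone probes were higher and 40 lower at 48 h against 0 h, the counts with it. H2ac10 at 0 h had 1 array above the rest (replicate 4, 15.02 against 14.80, 0.629). H3c13 at 24 h had 1 below (replicate 2, 12.02 against 12.28, 0.634).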

How the results depend on the processing

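Over the alternatives run, 3 changes called in the main fit changed sign, all of them small H2A rises at 24 h under 75th percentile scaling. They were those of H2ac13 (-0.03, limma adjusted p = 0.661), H2ac20 (-0.06, adjusted p = 0.377) and H2ac22 (0.00, adjusted p = 0.972). None of the 3 was called under that scaling, so a call was lost and no fall is read. The cause was not tested. Sign changes of probes called in neither fit were not counted. The median H2A change at 24 h under that scaling was -0.06 in place of 0.11. That scaling also gave 7 higher histone probes at 24 h against 0 h. The setting of 1 probe per gene tests 47 histone probes in place of 67, so its counts are smaller for that reason too. Of these 47, 11, 12 and 13 were higher at 48 h against 0 h, 72 h against 0 h and 48 h against 24 h. At 72 h against 48 h 9 were lower. The methods' t-test with Bonferroni adjustment gave 1 higher and 0 lower at 24 h against 0 h (15 and 20 after Benjamini-Hochberg), 2 and 18 at 48 h against 0 h, 22 lower at 72 h against 0 h, 14 and 21 at 48 h against 24 h, and 6 and 9 at 72 h against 48 h. A fold of at least 1.5 left 1 and 1, 1 and 20, 21 lower, 14 and 23, and 6 and 10 in the same order. A fold of at least 2 left 0 and 0, 0 and 14, 6 and 15, 0 and 16, and 0 and 6. Leaving out each replicate number in turn gave 14 to 18 higher and 18 to 27 lower at 24 h against 0 h, 19 to 20 and 38 to 41 at 48 h, 21 to 22 and 39 to 40 at 72 h, 23 to 24 and 39 to 41 for 48 h against 24 h, and 23 to 25 and 14 to 16 for 72 h against 48 h. With the replicate block, which pairs arrays by their number, 27 were higher and 16 lower at 72 h against 48 h. Against 0 h the block gave 18 and 28 at 24 h, 19 and 41 at 48 h and 22 and 41 at 72 h. It gave 23 and 41 at 48 h against 24 h, so no count moved by 1.5 times. Normexp background correction enlarged falls that ended dim, H2ac11 to -5.61 at 72 h and H2ac21 to -3.67. No slide was named for the arrays, so slide as a block was not run. Changes under about 0.2 at 24 h often crossed the threshold with 1 replicate left out, and the dimmest probes, near the negative controls, give only bounds.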
